A study of Mus musculus with 12 samples.

Results

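The globin genes and Alas2 were examined in messenger RNA of E17.5 mouse embryos, taken from the cerebral cortex with the hippocampal formation. The 8 genes were taken by name from the 55357 genes in the count tables: the adult beta globins Hbb-bs and Hbb-bt, the adult alpha globins Hba-a1 and Hba-a2, the embryonic globins Hbb-y, Hbb-bh1 and Hba-x, and Alas2. The rule uses gene names alone. Knockout embryos carried a Nestin-Cre transgene, active in neural progenitors and their progeny, from which blood cells do not arise, together with 2 floxed alleles of Egfr, the epidermal growth factor receptor gene. Control embryos had 1 floxed allele of Egfr. All embryos thus carried a floxed allele, and whether the controls also carried Cre is not given in the sources used here, so loss of Egfr and presence of Cre cannot be told apart. The strain is not given either. Each cortex was split into a rostral and a caudal part, and each genotype is represented by 3 libraries of either part, 12 libraries in 4 groups. Libraries are named below by group and by the embryo number in their titles, which is 5, 2 or 7 for knockout and 1, 3 or 9 for control.

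Hemoglobin joins alpha-type with beta-type chains around heme, and red cells make nearly all of it. The earliest red cells arise in the yolk sac and use embryonic chains: zeta from Hba-x, epsilon-y from Hbb-y and beta-h1 from Hbb-bh1. Red cells from the fetal liver then replace them and use the adult chains. Alas2 encodes the red cell form of 5-aminolevulinate synthase, the first enzyme of heme synthesis. Brain tissue contains blood in its vessels, and the labels' protocols mention no perfusion. In such bulk tissue, fewer cells of a type and less RNA per cell cannot be told apart.

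Library totals ran from 25223733 to 30383672 estimated counts. Egfr was at 3.60 to 7.33 CPM (counts scaled to a library total of 1000000) in the 6 knockout libraries and at 19.2 to 41.6 CPM in the 6 control libraries, with no overlap. Cortical neuron markers, 8 genes, summed to 3242 CPM in knockout rostral 7, to 3800 CPM in knockout caudal 5 and to between 3643 and 4284 CPM in the other 10 libraries. Both parts titled as 1 embryo showed the same sex transcripts (Xist and 4 Y genes) in 1 of 6 embryos, and control rostral 1 and control rostral 3 held transcripts of both sexes. The titles therefore give an embryo number that these values do not bear out, and results that rest on it are marked as sums per titled embryo.

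The beta globin genes lie on chromosome 7 of GRCm39, all on the minus strand. Hbb-bt (ENSMUSG00000073940.4) spans chr7:103461731-103463203, Hbb-bs (ENSMUSG00000052305.7) chr7:103475741-103477303, Hbb-bh1 (ENSMUSG00000052217.7) chr7:103490844-103492371 and Hbb-y (ENSMUSG00000052187.5) chr7:103500956-103502423. The alpha globin genes lie on the plus strand of chromosome 11. Hba-x (ENSMUSG00000055609.9) spans chr11:32226400-32228116, Hba-a1 (ENSMUSG00000069919.8) chr11:32233511-32234465 and Hba-a2 (ENSMUSG00000069917.8) chr11:32246489-32247298. Alas2 (ENSMUSG00000025270.14) is on the plus strand of the X chromosome at chrX:149330371-149353634.

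The adult globin genes come as near-identical copies, which bears on the separate values of these genes below because a read that maps to both copies was counted in fractions. Over 444 coding bases, Hbb-bs and Hbb-bt differed at 1, written C417T with Hbb-bs first and positions counted from the A of the start codon. Over 429 coding bases, Hba-a1 and Hba-a2 differed at 1, C381T with Hba-a1 first. The last 75 coding bases of each copy, from GENCODE vM21 transcripts on GRCm38, show how little separates them, with the differing base in capitals.
Hbb-bs: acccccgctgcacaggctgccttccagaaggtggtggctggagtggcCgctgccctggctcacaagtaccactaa
Hbb-bt: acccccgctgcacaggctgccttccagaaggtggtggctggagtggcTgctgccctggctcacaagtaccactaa
Hba-a1: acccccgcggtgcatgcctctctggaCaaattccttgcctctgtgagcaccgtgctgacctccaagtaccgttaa
Hba-a2: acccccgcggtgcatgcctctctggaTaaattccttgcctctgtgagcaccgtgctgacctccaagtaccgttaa
The longest stretch without a difference was 416 bases in the beta pair and 380 bases in the alpha pair, against reads of 75 bases. The embryonic genes were far more distinct. Hbb-y differed from Hbb-bs at 114 of 444 coding bases and from Hbb-bh1 at 105, and Hba-x differed from Hba-a1 at 163 of 429.

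Adult globins made up most of the globin RNA. Per kilobase of annotated gene length, the median level over the 12 libraries was 3275 CPM for Hbb-bs, 2518 for Hba-a1, 934 for Hbb-bt and 512 for Hba-a2. Alas2 followed at 27.3 CPM per kilobase, and the embryonic genes stood at 0.915 for Hbb-y, 0.525 for Hba-x and 0.167 for Hbb-bh1. Each of the first 5 genes exceeded the next in all 12 libraries, although the ranges of neighbours overlapped from Hbb-bs down to Hba-a2. Hbb-y exceeded Hba-x in 9 of 12 libraries and Hba-x exceeded Hbb-bh1 in 10, so the order of the embryonic genes did not hold in every library.

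Hbb-bs, the more abundant adult beta globin, was at 2095, 2075 and 5132 CPM in knockout rostral 5, 2 and 7, and at 3124, 1786 and 2105 CPM in knockout caudal 5, 2 and 7. It was at 2050, 2760 and 2557 CPM in control rostral 1, 3 and 9, and at 2474, 2965 and 3184 CPM in control caudal 1, 3 and 9. Knockout rostral 7 stood above every other library, and knockout and control overlapped in both parts. The group means were 3101 ± 1759 CPM in knockout rostral, 2456 ± 366 in control rostral, 2338 ± 699 in knockout caudal and 2874 ± 364 in control caudal (SD, n = 3 each).

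Hbb-bt, the second adult beta gene, was at 534, 538 and 2082 CPM in knockout rostral 5, 2 and 7 and at 1319, 468 and 545 CPM in knockout caudal 5, 2 and 7. It was at 544, 740 and 685 CPM in control rostral 1, 3 and 9 and at 629, 1011 and 997 CPM in control caudal 1, 3 and 9. Its highest library was 4.44 times its lowest, a wider spread than the 2.87 times of Hbb-bs.

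Hba-a1, the more abundant adult alpha globin, was at 1602, 1612 and 4158 CPM in knockout rostral 5, 2 and 7 and at 3039, 1614 and 1766 CPM in knockout caudal 5, 2 and 7. It was at 1560, 2191 and 2152 CPM in control rostral 1, 3 and 9 and at 1938, 2805 and 2558 CPM in control caudal 1, 3 and 9. The same 2 libraries, knockout rostral 7 and knockout caudal 5, were again the highest. Hba-a2, its neighbouring copy, ran from 285 CPM in control caudal 1 to 847 CPM in knockout rostral 7, with 609 CPM in knockout caudal 5.

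Alas2 was at 43.7, 47.5 and 136 CPM in knockout rostral 5, 2 and 7 and at 103, 50.9 and 53.3 CPM in knockout caudal 5, 2 and 7. It was at 49.1, 66.8 and 73.1 CPM in control rostral 1, 3 and 9 and at 64.6, 88.3 and 77.6 CPM in control caudal 1, 3 and 9. Its 2 highest libraries were knockout rostral 7 and knockout caudal 5, as for Hbb-bt, Hba-a1 and Hba-a2, whereas the second highest for Hbb-bs was control caudal 9. Set against the globins, it varied little, from 9.63 to 12.8 Alas2 counts per 1000 adult globin counts.

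**Figure D1:**
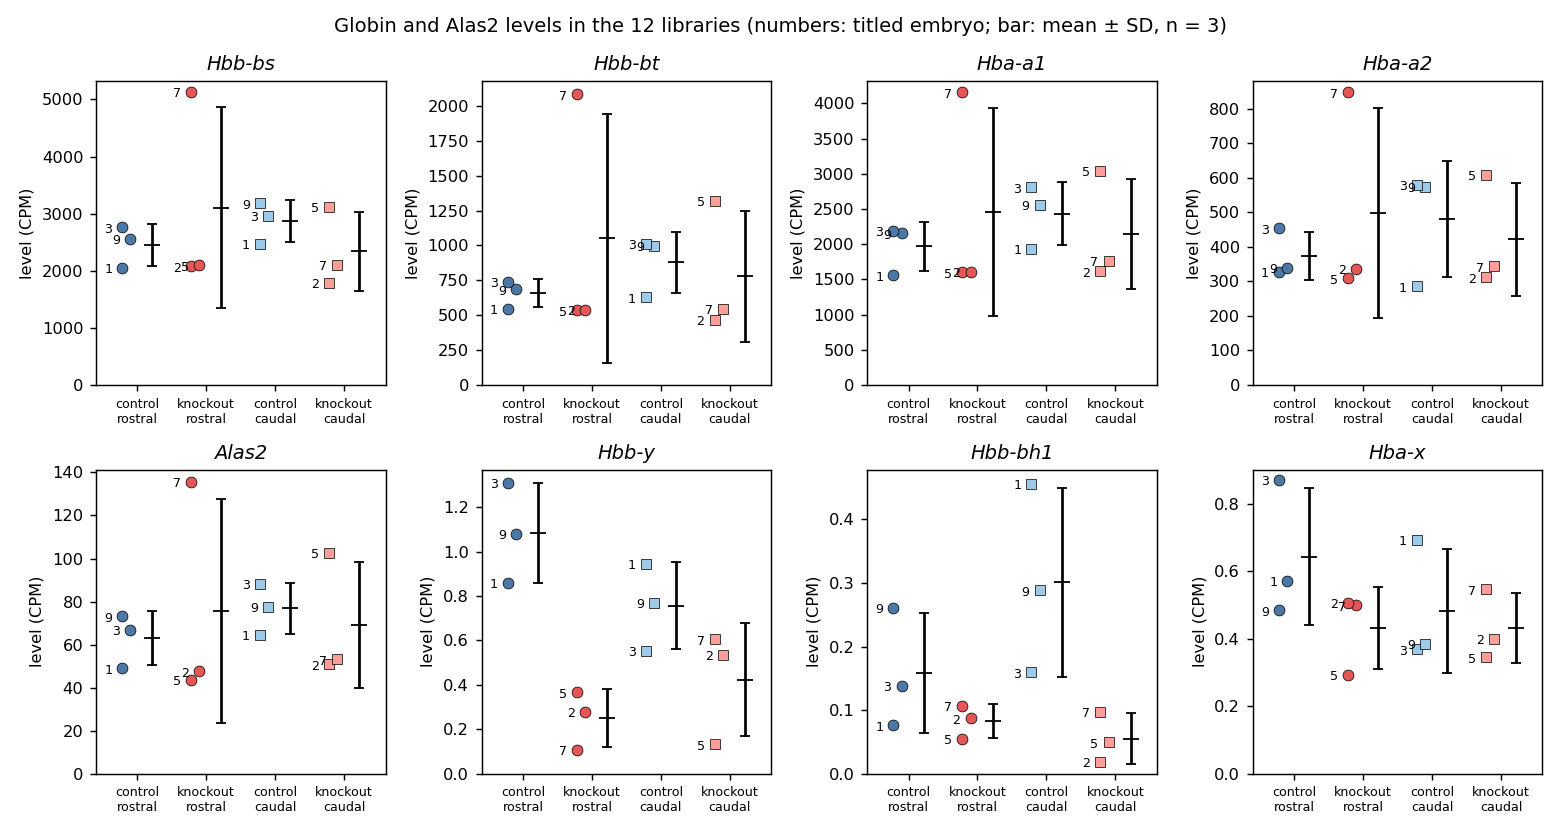
Level of each gene in CPM (vertical axes, linear, each from 0) in the 4 groups, with 1 point per library numbered by titled embryo and the mean ± SD of 3 libraries beside them. Knockout rostral 7 is the highest library for all 4 adult globins and Alas2, while Hbb-y is lower in all 3 knockout rostral than in all 3 control rostral libraries. The share of all genes so separated was not counted.

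The 4 adult globins together made up 0.418% to 1.22% of a library's counts. Their sum was 12218 CPM in knockout rostral 7 and 8091 CPM in knockout caudal 5, against 4180 to 7361 CPM in the other 10 libraries. The median over 6 libraries was 4661 CPM in knockout and 5939 CPM in control, whereas the mean was higher in knockout (6392 against 6060 CPM). Without the 2 high libraries, the largest remaining sums were those of control caudal 3 and control caudal 9.

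The share of mitochondrial genes stood apart in the same 2 libraries. These genes took 7.25% of counts in knockout rostral 7 and 4.77% in knockout caudal 5, against 1.96% to 3.53% in the other 10. Microglia and macrophage markers, 11 genes, summed to 237 CPM in knockout rostral 7 and 164 in knockout caudal 5, against 83.6 to 204 CPM elsewhere, so that only knockout rostral 7 lay outside the others. Pericyte and mural markers, 8 genes, summed to 224 and 140 CPM, against 85.3 to 149, and again only knockout rostral 7 lay outside. Endothelial markers, 12 genes, summed to 266 and 192 CPM, inside the 117 to 274 CPM of the other 10. No gene of these 3 lists was at 0 in every library, and their part in the globin levels was not tested.

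No globin and not Alas2 differed between genotypes or parts at an adjusted p under 0.05 in edgeR's quasi-likelihood test. Of the 8 genes, 7 passed the filter on low counts in each comparison, and Hbb-bh1 passed in none. In rostral libraries 0 of 7 were called in knockout against control, where 0 of 17131 genes were called in all (0%) and 180 genes had an unadjusted p under 0.05. Of the 7 only Hbb-y was among those 180, and it had passed the filter through the control group. In caudal libraries 0 of 7 were called, against a background of 0.0472% (8 of 16964 genes), and 871 genes but none of the 7 had an unadjusted p under 0.05. In the sums per titled embryo 0 of 7 were called, against 0.0317% (6 of 18935 genes), and 643 genes had an unadjusted p under 0.05, of the 7 only Hbb-y. Caudal against rostral and the interaction of genotype and part each called 0 of 7 members and 0 of 17734 genes (0%), with 1745 and 486 genes at an unadjusted p under 0.05. DESeq2 called none of the members either, and gave an adjusted p for all 7 in 4 comparisons but for 5 of 7 in the caudal one, where Hbb-y and Hba-x had none. Within a part, replicates came from separately titled embryos, and the p-values measure the spread between these libraries, or between sums in the sums. The tests of parts and of the interaction entered 2 libraries per titled embryo as separate samples, without a block. As the sex transcripts did not bear out the titles, independence of the replicates was not established.

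For the adult genes, the errors in the rostral part were of the same order as the differences. The log2 fold change of knockout against control was 0.38 ± 0.38 (SE) for Hbb-bs, 0.73 ± 0.55 for Hbb-bt, 0.37 ± 0.41 for Hba-a1, 0.46 ± 0.41 for Hba-a2 and 0.31 ± 0.46 for Alas2. Without knockout rostral 7 all 5 values were negative, from -0.444 for Alas2 to -0.184 for Hba-a2. In the caudal part the values were -0.29 ± 0.21 for Hbb-bs, -0.17 ± 0.42 for Hbb-bt, -0.18 ± 0.26 for Hba-a1, -0.19 ± 0.35 for Hba-a2 and -0.15 ± 0.28 for Alas2. In the sums per titled embryo the 5 log2 fold changes lay between 0.08 ± 0.26 for Hbb-bs and 0.31 ± 0.39 for Hbb-bt. When the 12 libraries entered singly and knockout rostral 7 and knockout caudal 5 were left out, they lay between -0.357 for Hba-a2 and -0.519 for Hbb-bt, again with none called.

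Between the titled parts, the adult genes and Alas2 differed by less than their errors. Nr2f1, used as a check of the parts, ran from 50.7 to 348 CPM in control rostral and 58.6 to 373 CPM in control caudal libraries. In knockout libraries it ran from 97.1 to 340 CPM in rostral and 71.3 to 348 CPM in caudal ones. As Nr2f1 overlapped between the titled parts, this comparison cannot show whether rostral and caudal cortex are alike. The genotype comparisons within a part and the interaction likewise concern the parts as titled. The log2 fold change of caudal against rostral ran from -0.07 ± 0.25 for Hbb-bs to 0.10 ± 0.29 for Alas2, with edgeR adjusted p from 0.943 to 0.995. Of the embryonic genes, Hbb-y gave 0.03 ± 0.38 and Hba-x -0.20 ± 0.26 (edgeR adjusted p = 0.983 and 0.848). The interaction, the caudal genotype difference minus the rostral one, was -0.90 ± 0.76 for Hbb-bt and -0.46 ± 0.60 for Alas2 (edgeR adjusted p = 0.998 for both).

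**Figure D2:**
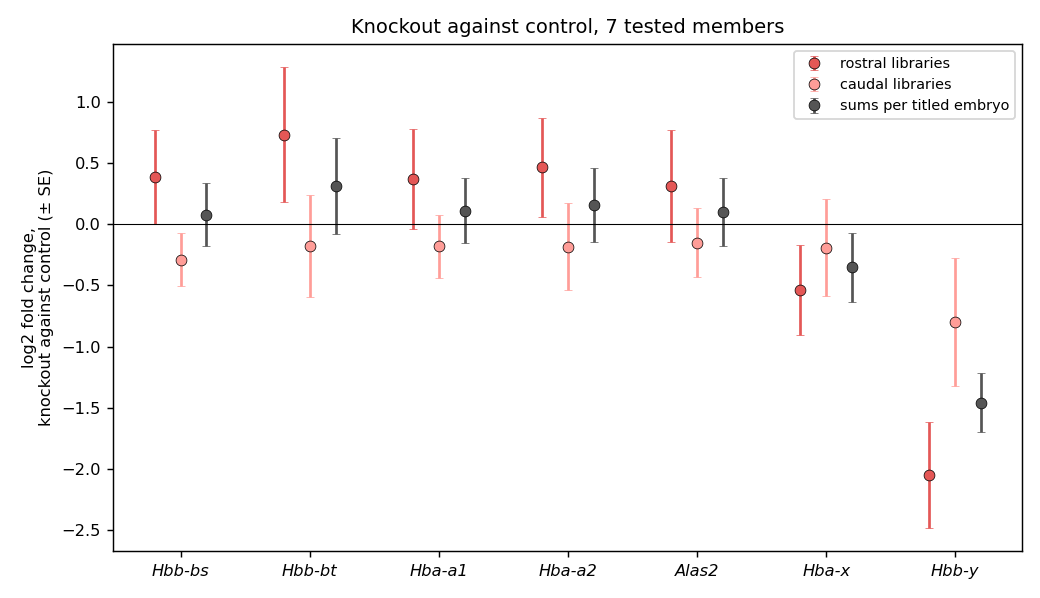
Log2 fold change of knockout against control (vertical axis, ± SE) for the 7 tested genes, in rostral libraries, in caudal libraries and in the sums per titled embryo, each 3 against 3. Adult globins and Alas2 lie on both sides of 0, and Hbb-y lies below 0 in all 3 comparisons, which share libraries.

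Hbb-y, the embryonic epsilon-y globin, had few counts, and among the 7 tested genes its fold changes between genotypes were the most negative in both parts and in the sums. It was at 0.366, 0.280 and 0.107 CPM in knockout rostral 5, 2 and 7 (10, 8 and 3 counts) and at 0.859, 1.31 and 1.08 CPM in control rostral 1, 3 and 9 (22.5, 33 and 29 counts). The rostral groups did not overlap, but the share of all genes without overlap was not counted. With no difference between groups, 3 against 3 independent libraries separate fully, in either direction, with probability 0.1. As independence of these libraries was not established, that probability need not hold here. In the caudal part it was at 0.132, 0.534 and 0.605 CPM in knockout 5, 2 and 7 (4, 14 and 15.5 counts) and at 0.945, 0.553 and 0.769 CPM in control 1, 3 and 9 (24.5, 15 and 20 counts), and there the groups overlapped. The 2 lowest libraries, knockout rostral 7 and knockout caudal 5, were those with the most adult globin.

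The rostral log2 fold change of Hbb-y was -2.05 ± 0.43 (SE; edgeR adjusted p = 1.00), and the caudal one was -0.80 ± 0.52 (edgeR adjusted p = 1.00). The interaction was 1.26 ± 0.73 (edgeR adjusted p = 0.998), so a different size in the 2 parts was not shown. Without knockout caudal 5 the caudal value was -0.34, and without knockout rostral 7 the rostral value was -1.70. In the sums per titled embryo, knockout 5, 2 and 7 held 14, 22 and 18.5 counts and control 1, 3 and 9 held 47, 48 and 49. The mean of the sums was 0.330 ± 0.0805 CPM in knockout and 0.915 ± 0.0129 CPM in control (SD, n = 3 each). These SDs rest on the titles and on few counts. Taken singly, the 6 libraries had an SD of 0.205 CPM in knockout and 0.260 CPM in control. The difference between the sums, -1.46 ± 0.24 on the log2 scale, did not pass the correction over all genes (edgeR adjusted p = 0.283). Its adjusted p ran from 0.00122, with no filter on low counts, to 1.00 over 15 alternatives. When the 12 libraries entered singly and knockout rostral 7 and knockout caudal 5 were left out, the difference was -0.983. In rostral libraries the filter admitted Hbb-y through the control group, where its counts were higher.

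Hba-x, the embryonic zeta globin, ranged from 0.293 CPM in knockout rostral 5 to 0.872 CPM in control rostral 3, on 8 to 22 counts per library. Knockout libraries lay between 0.293 and 0.547 CPM and control libraries between 0.369 and 0.872 CPM, which overlap. The log2 fold change of knockout against control was -0.54 ± 0.37 in rostral libraries, -0.19 ± 0.40 in caudal libraries and -0.35 ± 0.28 in the sums, all with an edgeR adjusted p of 1.00.

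Hbb-bh1, the embryonic beta-h1 globin, had 0.5 to 11.83 counts per library and was not tested. It was at 0.0549, 0.0874 and 0.107 CPM in knockout rostral 5, 2 and 7 and at 0.0763, 0.139 and 0.261 CPM in control rostral 1, 3 and 9. In the caudal part it was at 0.0494, 0.0191 and 0.0976 CPM in knockout 5, 2 and 7 and at 0.456, 0.160 and 0.288 CPM in control 1, 3 and 9. The rostral groups overlapped and the caudal groups did not, at counts too low for the test. How many of all genes were so separated was not counted here either.

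Each embryonic globin was also set against the adult globins of its own chain type, which scales it to the globin RNA of its library. Hbb-y stood at 14.8 counts per 1000000 adult beta globin counts in knockout rostral 7 (95% Poisson interval 3.06 to 43.4) and at 29.6 in knockout caudal 5 (8.07 to 75.9). The other 4 knockout libraries ran from 107 to 237 and the 6 control libraries from 139 to 374. Control caudal 3 at 139 and control caudal 9 at 184 fell within the knockout range. Hba-x ran from 94.7 to 330 counts per 1000000 adult alpha globin counts, lowest in knockout caudal 5 and knockout rostral 7, followed by control caudal 3 and control caudal 9. Intervals cover counting error only, and these 4 libraries were the 4 with the highest adult globin sums, which form the divisor.

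**Figure D3:**
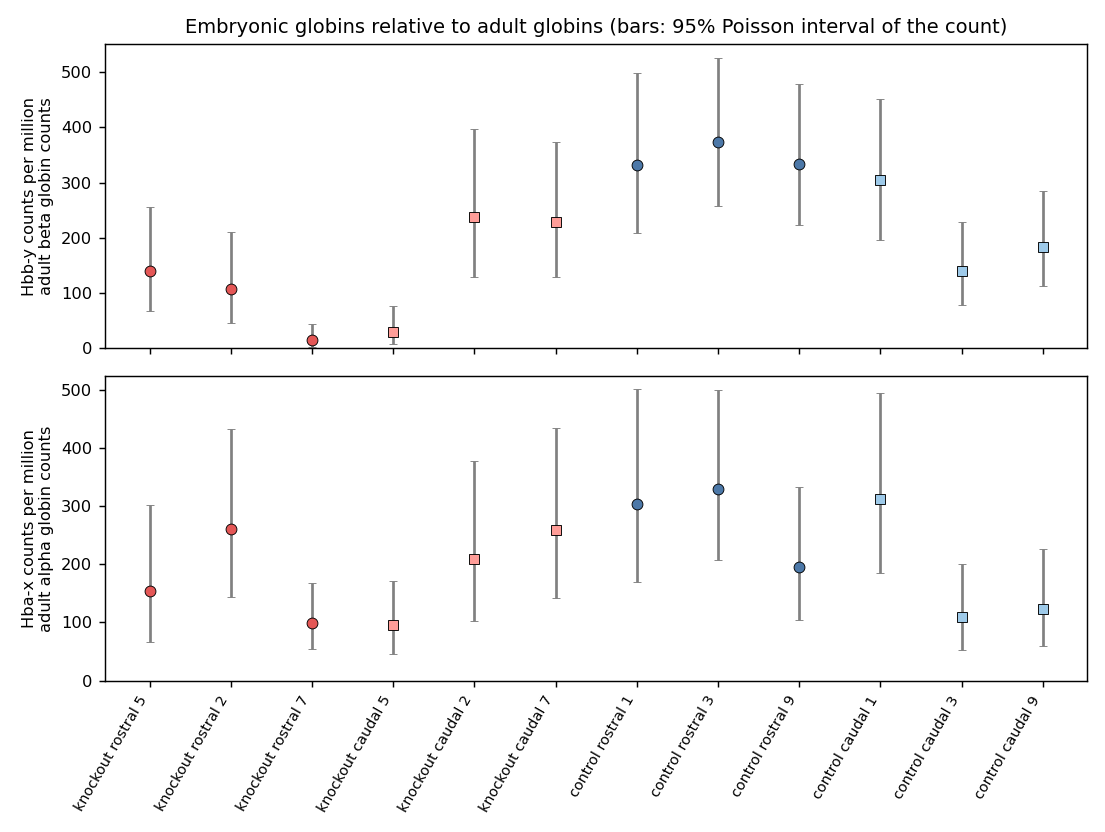
Hbb-y per 1000000 adult beta globin counts (upper panel) and Hba-x per 1000000 adult alpha globin counts (lower panel) in each library, with 95% Poisson intervals of the embryonic count; circles are rostral and squares caudal, red shades knockout and blue shades control. Knockout rostral 7 and knockout caudal 5 lie lowest in both panels.

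The split of counts between near-identical copies was narrow in most libraries and shifted in a few. Hbb-bs took 78.9% to 79.7% of the Hbb-bs and Hbb-bt counts in 8 libraries. It took 71.1% in knockout rostral 7 (95% Wilson interval 70.9% to 71.3%), 70.3% in knockout caudal 5 (70.1% to 70.5%), 74.6% in control caudal 3 (74.3% to 74.8%) and 76.2% in control caudal 9 (75.9% to 76.4%). These 4 libraries were again the 4 with the highest adult globin sums. Hba-a1 took 81.7% to 83.8% of the alpha pair in 10 libraries. It took 86.4% in control rostral 9 (86.1% to 86.6%) and 87.2% in control caudal 1 (86.9% to 87.4%).

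The shifted libraries were not partners by title. The Hbb-bs share differed by 9.38 percentage points between the parts titled knockout 5 and by 8.30 points between those titled knockout 7, while knockout rostral 7 and knockout caudal 5 differed by 0.838 points. The Hba-a1 share differed by 4.52 points between the parts titled control 1 and by 4.69 points between those titled control 9, while control rostral 9 and control caudal 1 differed by 0.804 points. The groupings were noticed in the data and were given no test, and because fractional counting assigns shared reads, the shares are not shares of transcripts. Alpha to beta balance did not follow these shifts. The ratio of adult alpha to adult beta counts ran from 0.694 in knockout rostral 7 to 0.854 in knockout caudal 2, with 0.821 in knockout caudal 5.

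**Figure D4:**
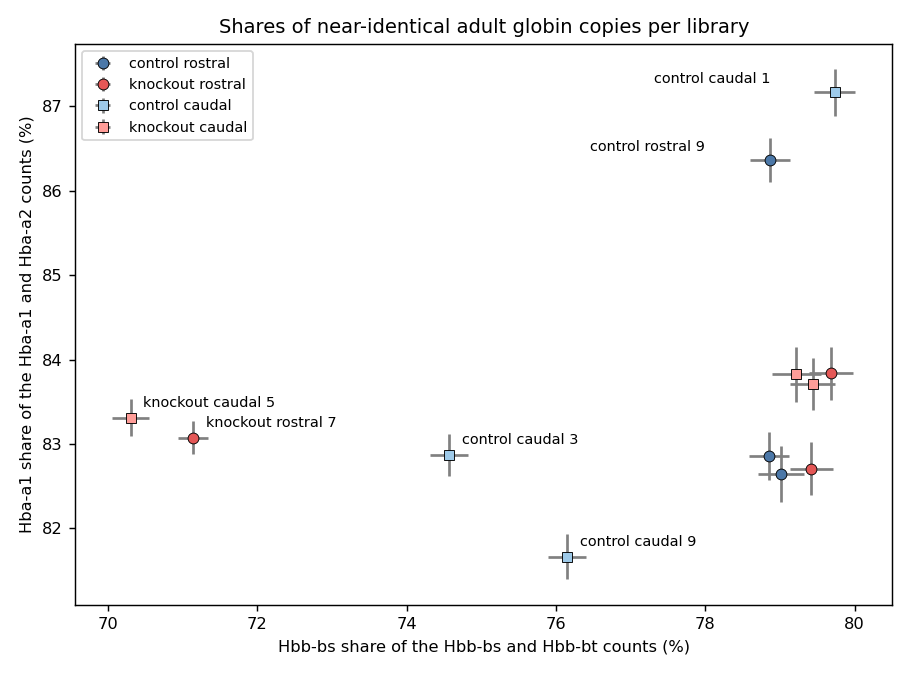
Share of Hbb-bs in the adult beta pair (horizontal axis, %) against share of Hba-a1 in the adult alpha pair (vertical axis, %), 1 point per library with 95% Wilson intervals; neither axis starts at 0. Knockout rostral 7 lies beside knockout caudal 5, and control rostral 9 beside control caudal 1.

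Across libraries the adult globins rose and fell together. Over the 12 libraries, Pearson's r of log2(CPM + 0.5) was 0.971 between Hbb-bs and Hbb-bt, 0.940 between Hba-a1 and Hba-a2, and 0.965 between Hbb-bs and Hba-a1. Alas2 against the summed adult globins gave r = 0.970 and Spearman's rho = 0.930, and r = 0.934 without knockout rostral 7 and knockout caudal 5. Hbb-y gave r = -0.400 against the adult sum and 0.400 without those 2 libraries, so its sign rested on them. Hbb-y and Hba-x gave r = 0.588. The mitochondrial share gave r = 0.862 against the adult sum and 0.547 without the 2. These are descriptions over libraries that share depth, dissection and, within pairs, reads assigned to both copies.

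The start regions of these genes were read for 7 of the 8 genes from RefSeq on GRCm38.p6, 250 bases up to the start. They are shown as background, and any link between them and the levels over the 12 libraries was not tested. Capitals mark matches to 4 short motifs, searched on both strands, where overlapping matches run together. The first was CACCC, letters that Krüppel-like factors bind. The second was CCAAT, a common promoter box. The third was AGATAA, a form of the site of GATA factors. The last was TATAA, the core of the TATA box.
Hbb-bs, chr7:103827929-103828178, minus strand: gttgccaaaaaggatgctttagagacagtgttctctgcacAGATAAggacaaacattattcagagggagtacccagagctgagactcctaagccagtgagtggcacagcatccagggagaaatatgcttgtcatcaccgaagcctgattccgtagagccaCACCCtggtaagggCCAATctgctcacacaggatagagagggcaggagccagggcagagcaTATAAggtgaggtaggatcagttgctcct
Hbb-bt, chr7:103813924-103814173, minus strand: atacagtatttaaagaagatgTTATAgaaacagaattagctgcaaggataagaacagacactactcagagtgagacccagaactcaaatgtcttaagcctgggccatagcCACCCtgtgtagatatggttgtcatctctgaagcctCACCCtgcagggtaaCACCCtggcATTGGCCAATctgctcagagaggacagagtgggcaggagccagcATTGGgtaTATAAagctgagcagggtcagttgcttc
Hba-a1, chr11:32283422-32283671, plus strand: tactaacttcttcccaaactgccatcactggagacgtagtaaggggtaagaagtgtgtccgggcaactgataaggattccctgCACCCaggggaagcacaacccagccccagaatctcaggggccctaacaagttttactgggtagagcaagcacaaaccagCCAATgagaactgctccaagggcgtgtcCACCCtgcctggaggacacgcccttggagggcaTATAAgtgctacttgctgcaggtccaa
Alas2, chrX:150547167-150547416, plus strand: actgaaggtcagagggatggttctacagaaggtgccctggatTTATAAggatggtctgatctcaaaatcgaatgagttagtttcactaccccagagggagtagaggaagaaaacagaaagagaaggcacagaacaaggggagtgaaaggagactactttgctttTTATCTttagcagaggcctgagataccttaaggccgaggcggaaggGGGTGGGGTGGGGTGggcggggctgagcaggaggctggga
Hbb-y, chr7:103853208-103853457, minus strand: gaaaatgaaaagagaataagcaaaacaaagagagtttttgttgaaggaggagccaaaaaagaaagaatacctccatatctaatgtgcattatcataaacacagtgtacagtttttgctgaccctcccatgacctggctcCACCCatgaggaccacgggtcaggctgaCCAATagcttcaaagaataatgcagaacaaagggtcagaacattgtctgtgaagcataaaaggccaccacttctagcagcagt
Hba-x, chr11:32276350-32276599, plus strand: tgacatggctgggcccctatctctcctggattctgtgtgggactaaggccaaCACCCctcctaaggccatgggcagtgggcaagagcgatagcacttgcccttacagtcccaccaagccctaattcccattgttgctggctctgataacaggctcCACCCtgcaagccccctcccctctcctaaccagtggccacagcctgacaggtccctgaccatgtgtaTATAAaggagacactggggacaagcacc
The Hba-a2 region matched that of Hba-a1 at 247 of 247 bases at a shift of 3 bases. Compared in the same way, without gaps, the Hbb-bs and Hbb-bt regions matched at only 127 of 249 bases. CACCC was present in all 7 regions, and in 52.0% of the 32851 mouse promoters in the same table. CCAAT was present in 5 of 7 against 33.8%, TATAA in 6 of 7 against 22.8%, and AGATAA in 2 of 7, Hbb-bs and Alas2, against 9.99%. The TATAA matches of Alas2 began 207 and 208 bases before the start. A match describes letters in these windows and no more.

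Genes whose levels were most like the summed adult globins were sought among 14790 genes with a mean of at least 1 CPM. The 10 highest by Pearson's r over 12 libraries were Fech (0.945), Tent5c (0.942), Bpgm (0.940), Fermt3 (0.939), Gm15590 (0.926), Fyb (0.925), S100a9 (0.922), Sting1 (0.918), Phospho1 (0.915) and Arhgdib (0.915). Fech encodes ferrochelatase, which inserts iron into protoporphyrin to make heme, and was at 51.9 CPM in knockout rostral 7, 48.1 in knockout caudal 5 and 32.1 to 43.7 in the other 10. Bpgm encodes bisphosphoglycerate mutase, which makes the red cell regulator of oxygen affinity, and was at 95.1, 81.5 and 59.8 to 72.1 CPM. Fermt3, an integrin activator of blood cells, was at 4.32, 2.48 and 1.57 to 2.81 CPM, and S100a9, a calcium-binding protein of neutrophils, at 2.86, 1.58 and 0.573 to 1.92 CPM. For both genes knockout caudal 5 lay inside the range of the other 10, as it did for Gm15590, Fyb and Phospho1. Without knockout rostral 7 and knockout caudal 5, r of the 10 genes ran from 0.733 for Arhgdib to 0.937 for Phospho1. Ranking by Spearman's rho shared 3 of the 10. In all, 16 genes had r of at least 0.9 and 38 had r of at most -0.9, and the summed cortical neuron markers gave r = -0.923.

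**Figure D5:**
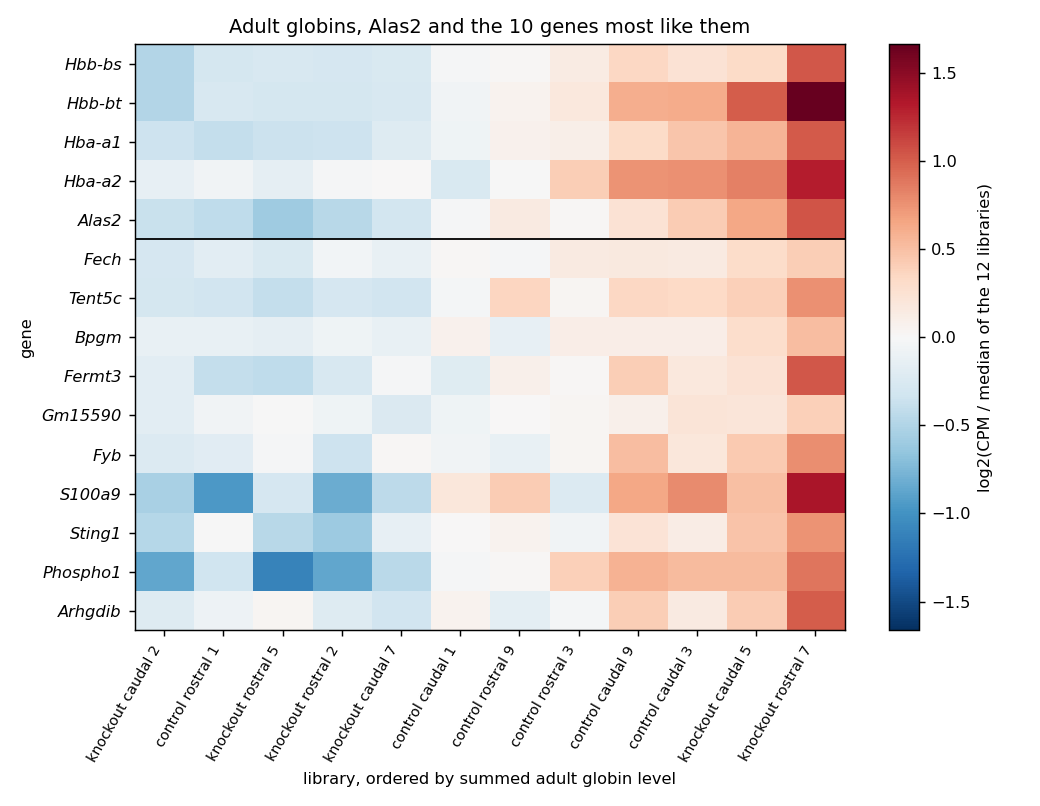
Log2 ratio of CPM to the median of the 12 libraries (color) for the adult globins, Alas2 and the 10 genes most like them (rows), with libraries ordered by summed adult globin level (columns). Every gene shown is highest in knockout rostral 7.

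The other red cell genes were described by lists. In knockout against control, sums per titled embryo, none of the tested members of a list was called: 0 of 11 for heme synthesis, 0 of 4 for heme breakdown, 0 of 10 for red cell membrane, 0 of 12 for erythroid markers and 0 of 10 for globin gene regulators, some of which stand in more than 1 list, against the 0.0317% called over all genes. Their median log2 fold changes were 0.05, 0.15, -0.06, 0.06 and -0.05, against 0.00 over all 18935 genes. The smallest p in the heme breakdown list was that of Hmox2, a constitutive heme oxygenase, at 0.12 ± 0.05 (edgeR adjusted p = 1.00). In the membrane list it was that of Ank1, which encodes ankyrin, at -0.28 ± 0.17 (edgeR adjusted p = 1.00). Caudal against rostral called none of the members of these lists, and 0 of 17734 genes in all.

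Erythroid markers summed to 203 CPM in knockout rostral 7 and 170 in knockout caudal 5, against 124 to 162 CPM in the other 10 libraries. Heme synthesis genes summed to 248 and 246 CPM against 197 to 237, and heme breakdown genes to 65.9 and 68.8 CPM against 52.2 to 64.6. Red cell membrane genes did not stand apart, at 302 and 306 CPM, inside the 298 to 349 CPM of the other 10. Of 19 erythroid markers measured, 6 were higher in both knockout rostral 7 and knockout caudal 5 than in every other library. Among them were Slc4a1, Car2, Bpgm and Trim10, named here after their values were seen. Over all 37826 genes with a count, 1337 (3.53%) were so placed. Among genes with a mean of at least 1 CPM, 6 of 8 erythroid markers were so placed, against 951 of 14795 genes (6.43%). That mean includes knockout rostral 7 and knockout caudal 5, so a gene high there could pass through them, and no conclusion is drawn from this count. Trim10 was at 3.46 and 2.40 CPM in them and at 0.256 to 1.86 CPM in the other 10. The other 13 erythroid markers were not so placed, and only 2 of these 13 had a mean of at least 1 CPM. Tfrc, the transferrin receptor, was 1 of these 2, at 58.7 and 49.1 CPM against 44.0 to 67.1. Slc4a1, the band 3 anion exchanger of the red cell membrane, was at 16.6 and 12.6 CPM in these 2 and at 3.70 to 9.83 CPM in the others. Car2, which encodes carbonic anhydrase 2, was at 13.3 and 10.8 CPM against 4.88 to 10.6. Of the 12 globin gene regulators, 8 had a mean of at least 1 CPM, among them Lmo2 at 5.57 to 12.8 CPM and Myb at 3.48 to 7.64 CPM. The regulators summed to 692 CPM in knockout rostral 7 and 906.5 in knockout caudal 5, against 861 to 1097 CPM in the other 10. Pearson's r of that sum against the adult globins was -0.641, and -0.141 without the 2 libraries. The red cell factors Gata1 and Klf1 were at most 0.234 and 0.592 CPM in any library.

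Of the other globins, Cygb, which encodes cytoglobin and is expressed in fibroblast-like cells, ranged from 7.71 to 19.7 CPM, and r of the summed other globins, in which it was the only gene at 1 CPM or more, against the adult globins was -0.01. Ngb, which encodes neuroglobin, was at most 0.315 CPM and Hbq1b, a theta globin gene, at most 0.634 CPM. In the sums per titled embryo, the log2 fold change was -0.02 ± 0.08 for Cygb and -0.37 ± 0.48 for Hbq1b (edgeR adjusted p = 1.00 for both).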

How the data were processed

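The authors aligned reads with STAR 2.7.8a to GRCm39 and counted them with featureCounts 2.0.3, per the submitters' processing notes. The deposited values are expected counts (estimated counts) per gene that the authors made with the GENCODE vM28 annotation, taking read pairs on the reverse strand and giving fractions to reads that map to several places or genes, per the file headers, with no normalization. Libraries came from captured messenger RNA and were read as 75-base pairs, per the labels' protocols. Of the genes detected in a library, 21.6% to 23.9% had fractional values, and for near-identical globin copies the split between copies depends on this counting.

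Rounded counts were tested by edgeR 4.0.16 in R 4.3.3 (TMM, filterByExpr, robust quasi-likelihood fits, Benjamini-Hochberg adjusted p under 0.05). The SE is the log2 fold change over the square root of F. Genotypes were compared within each part, 3 against 3, and in sums per titled embryo. Parts and the interaction were tested in all 12 libraries without a block. CPM used the deposited totals. Levels, intervals and plots were made with numpy 2.4.6, pandas 2.3.3, scipy 1.17.1 and matplotlib 3.10.9. Scripts were tested on simulated data.

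Groups came from the labels. The 8 genes and 13 gene lists (127 genes) were chosen with earlier results of these data known. Named are the 8 genes, up to 4 called members or the 2 with the smallest p of a list where it is described, the 10 genes most like the summed adult globins, and Egfr, Xist, Y genes and Nr2f1 as checks. Not every gene this allows is printed. The erythroid marker Ahsp was not analysed here. Alternatives were DESeq2 size factors, DESeq2 1.42.0, no filter, joined copies, unrounded counts, replicates left out, the title number or titled embryo as a block, all 12 libraries in 1 fit, another CPM total, Spearman's rho, and fits without control rostral 1 and 3. Fits without knockout rostral 7 and knockout caudal 5 were added after seeing the data. Deviations from group means of libraries titled as 1 embryo correlated over 1000 autosomal genes at -0.706 to 0.176, above 0.1 in 1 of 6 embryos, so the titled numbers were not taken to pair the libraries. No replicate was a copy of another (chi-square per gene at least 16.6).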

Additional observations from a re-analysis of the deposited data

How the results depend on the processing

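Of 84 counts of called members under an alternative, 83 stayed at 0 and 1 moved. With no filter on low counts, the sums per titled embryo called 1 member, Hbb-y (log2 fold change -1.46, edgeR adjusted p = 0.00122), where 113 genes were called in all. Of 588 member log2 fold changes under an alternative, 63 changed sign, none of them a called value and none of Hbb-y between genotypes. In no fit did the median of all genes move by over 0.1. Counts over all genes did depend on the setting: DESeq2 called 4 genes in rostral libraries, 77 in caudal libraries, 32 in the sums and 56 in caudal against rostral, and no filter gave 2 in rostral and 57 in caudal libraries. In caudal libraries 8 genes became 2 without knockout 5, 4 without knockout 7, 5 without control 9 and 3 in 1 fit of all 12, which gave 2 in rostral libraries. In the sums 6 became 21 without knockout 2, 2 without knockout 5, 10 without control 3, 13 without control rostral 1 and 3, and 3 with all 12 libraries separate, with or without knockout rostral 7 and knockout caudal 5. The interaction called 6 genes without control rostral 9 and 1 without control caudal 1. The low counts of the embryonic globins limit what these tests can show.

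In the sums, leaving out control rostral 1 and 3 gave -0.0145 for Hba-a1 and -0.0438 for Alas2. With all 12 libraries separate and without knockout rostral 7 and knockout caudal 5, values were -0.376 for Hbb-bs, -0.519 for Hbb-bt, -0.387 for Hba-a1, -0.357 for Hba-a2 and -0.493 for Alas2. In caudal against rostral, Hbb-bt was -0.0489 with copies joined. Without control rostral 1 and 3 that comparison gave -0.186 for Hbb-bt, -0.0728 for Hba-a1, -0.00384 for Hba-a2 and -0.0622 for Alas2, and the interaction of Hba-x was -0.00554. Without knockout rostral 7 and knockout caudal 5 it gave 0.138 for Hbb-bs and -0.0151 for Hbb-y. The titled embryo as a replicate block gave 0.00156 for Hbb-bs in caudal against rostral and called 0 members there and in the interaction; the pairing by title was not borne out. The cause of these changes was not tested.

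With 1 replicate left out, no member was called. Rostral log2 fold changes of knockout against control then ran from -0.213 to 0.613 for Hbb-bs, -0.27 to 1.06 for Hbb-bt, -0.27 to 0.612 for Hba-a1, -0.184 to 0.727 for Hba-a2 and -0.444 to 0.599 for Alas2. Caudal ones ran from -0.774 to 0.091 for Hbb-bt, -0.427 to 0.151 for Hba-x and -0.539 to 0.0317 for Alas2. In the sums they ran from -0.208 to 0.286 for Hbb-bs, -0.068 to 0.617 for Hbb-bt, -0.137 to 0.325 for Hba-a1, -0.0964 to 0.368 for Hba-a2 and -0.163 to 0.326 for Alas2. In caudal against rostral they ran from -0.16 to 0.238 for Hbb-bs, -0.178 to 0.511 for Hbb-bt, -0.0302 to 0.392 for Hba-a1, -0.0225 to 0.412 for Hba-a2, -0.173 to 0.197 for Hbb-y and -0.0421 to 0.46 for Alas2. The interaction ran from -1.50 to 0.11 for Hbb-bt, -0.863 to 0.103 for Hba-a1, -0.987 to 0.0132 for Hba-a2 and -0.842 to 0.307 for Alas2. Ranking by Spearman shared 3 of the 10 genes most like the adult globins.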
